A study of Mus musculus with 11 samples.

Results

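The RNA levels of 10 tubulin genes were followed in mouse embryonic stem cells after knockdown of CMTR1. They are the 3 alpha-tubulin genes Tuba1a, Tuba1b and Tuba1c, the 6 beta-tubulin genes Tubb2a, Tubb2b, Tubb3, Tubb4b, Tubb5 and Tubb6, and the gamma-tubulin gene Tubg1, taken by name from the 54838 gene identifiers in the count files. Tubb6 was chosen by its log2 fold change against control with both CMTR1 siRNAs in these same libraries, so its values are given as a description with no test. The cells were E14, an established mouse embryonic stem cell line kept in serum replacement medium with LIF, the cytokine that maintains self-renewal. All 11 libraries came from cells that received an siRNA for 36 h. There were 3 libraries with the control scramble siRNA, 4 with CMTR1 siRNA 1 and 4 with CMTR1 siRNA 2, and the genotype, line, medium and time were the same in all groups. CMTR1 is the methyltransferase that modifies the first transcribed nucleotide of the mRNA cap. The study's methods state 3 biological replicates for PCR or sequencing, whereas each CMTR1 siRNA has 4 libraries here. Neither the methods nor the labels say which of these libraries came from separate cultures or experiments. The p-values therefore measure the spread between the libraries as deposited.

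Microtubules are hollow polymers of alpha- and beta-tubulin dimers, which carry chromosomes in mitosis and cargo between divisions. Gamma-tubulin does not build the wall of the tube but forms the ring from which new microtubules grow. Mammals have several alpha and beta genes, called isotypes, whose proteins differ mainly in the acidic tail at the C-terminus. Cells hold the amount of tubulin steady by autoregulation, in which the factor TTC5 binds the first residues of a newly made alpha- or beta-tubulin chain and brings in the machinery that degrades the mRNA being translated.

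The start of the coding sequence is printed for 5 alpha and beta genes because it encodes the residues that TTC5 reads, and for Tubg1, a gamma gene, as a contrast. These are the first 30 coding bases of the GENCODE M21 transcripts on GRCm38, and capitals mark the first 4 codons.
Tuba1a: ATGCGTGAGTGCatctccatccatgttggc
Tuba1b: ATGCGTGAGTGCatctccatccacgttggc
Tubb2a: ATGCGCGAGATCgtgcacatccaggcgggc
Tubb2b: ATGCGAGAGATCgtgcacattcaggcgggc
Tubb5: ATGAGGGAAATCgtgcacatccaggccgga
Tubg1: ATGCCGAGAGAAatcatcaccctacagttg
The 3 alpha genes shared 1 spelling of these 12 bases, and the 5 beta genes read had 4 spellings. The 4 beta spellings differ in synonymous codons alone and encode the same residues.

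The end of the coding sequence is printed for 4 beta genes because it encodes the tail that distinguishes the isotypes. These are the last 60 coding bases before the stop codon from the same transcripts, and capitals mark in-frame GAA and GAG codons, which encode glutamate, the residue that carries polyglutamylation.
Tubb2a: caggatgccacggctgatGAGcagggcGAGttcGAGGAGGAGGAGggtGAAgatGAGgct
Tubb2b: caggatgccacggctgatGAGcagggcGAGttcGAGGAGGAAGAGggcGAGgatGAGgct
Tubb5: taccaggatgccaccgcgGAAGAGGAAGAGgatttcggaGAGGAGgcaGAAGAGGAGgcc
Tubb3: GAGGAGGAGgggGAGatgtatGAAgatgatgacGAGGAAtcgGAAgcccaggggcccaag
Position by position, Tubb2a and Tubb2b were alike at 57 of the 60 bases, against 26 for Tubb3 and Tubb5. Of the 20 codons shown, 8 in Tubb2a, Tubb2b and Tubb3 and 9 in Tubb5 were GAA or GAG.

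These likenesses limit what the reads can tell. The coding sequences were 98.3% identical between Tuba1a and Tuba1b, 97.9% between Tuba1b and Tuba1c, 97.1% between Tuba1a and Tuba1c and 96.5% between Tubb2a and Tubb2b. Of all stretches of 75 bases, the read length, in the exons of a gene, 70.5% in Tuba1a, 70.0% in Tuba1b, 48.9% in Tuba1c, 43.2% in Tubb2a and 30.2% in Tubb2b also occurred in another gene or pseudogene. For Tubb4b the share was 29.9%, mostly with processed pseudogenes, for Tubg1 it was 6.02%, and for Tubb3, Tubb5 and Tubb6 it was 0. The study sequenced both ends of each fragment, so these are shares of single stretches and not of the read pairs set aside. Reads that fit several places were set aside before counting, so the levels of the alpha genes, Tubb2a and Tubb2b rest on part of their sequence and their split is uncertain. Exons of Tuba1a (473 bases) and Tuba1b (426 bases) also overlap those of Gm49450, a predicted gene on the same strand that is listed at 0 reads in all 11 libraries.

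Each library held 6738478 to 8382318 reads counted on genes. Cmtr1, the targeted gene, lay between 17.9 and 21.7 CPM (reads per 1000000 counted reads) with control siRNA, 16.2 and 21.3 with siRNA 1 and 15.6 and 19.5 with siRNA 2, so the groups overlapped. Its log2 fold change was -0.09 ± 0.11 (SE, 95% interval -0.29 to 0.12, edgeR adjusted p = 0.743) for siRNA 1. For siRNA 2 it was -0.25 ± 0.11 (-0.46 to -0.04, edgeR adjusted p = 0.144, unadjusted p = 0.0257). The knockdown was therefore not detectable at the RNA level for siRNA 1. For siRNA 2 the whole interval was negative, but the change did not pass after adjustment over all genes tested. CMTR1 protein cannot be read from these libraries, and the study lists both siRNAs for western blots. Groups are named by their labels. Embryonic stem cell markers were abundant, with Pou5f1 between 419 and 507 CPM in every library. The 10 neuron markers spread widely in control, from means of 1.66 CPM for Rbfox3 and 3.22 CPM for Dcx through 12.6 CPM for Gap43, 14.8 CPM for Elavl3 and 18.2 CPM for Nefl to 86.7 CPM for Stmn2.

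The tubulin genes covered a wide range of levels in control cells. On a scale of CPM per kilobase of full exon length, Tubb5 was highest at 434 ± 15 (SD, n = 3), followed by Tubb4b at 211 ± 5.7 and Tuba1b at 170 ± 6.3. This scale does not allow for shared stretches, whose reads were set aside, so genes with many of them can read low. Of the 75-base stretches, 70.0% in Tuba1b, 29.9% in Tubb4b and 0% in Tubb5 were shared. Tubb5 and Tubb4b encode the beta-tubulins of most dividing cells. Tuba1a (70.3 ± 3.2), Tuba1c (52.3 ± 2.2), Tubb2b (40.9 ± 0.92) and Tubb6 (34.7 ± 0.93) were intermediate. Tubb3, known as a marker of neurons, lay at 25.5 ± 1.6, Tubg1 at 21.1 ± 0.30 and Tubb2a last at 9.22 ± 0.58. No neighbours in this order of 10 genes had overlapping control libraries, but the order is given for this scale alone. On this scale Tubb6 stood above Tubb2b with both CMTR1 siRNAs, the reverse of their order in control cells. The values were 48.6 ± 3.2 against 43.6 ± 1.7 CPM per kilobase with siRNA 1 and 42.9 ± 2.3 against 38.7 ± 0.54 with siRNA 2. That is a description, because Tubb6 was chosen by its rise. The order of these genes also rests on full exon length, with 30.2% of stretches shared in Tubb2b and 0% in Tubb6.

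**Figure D1:**
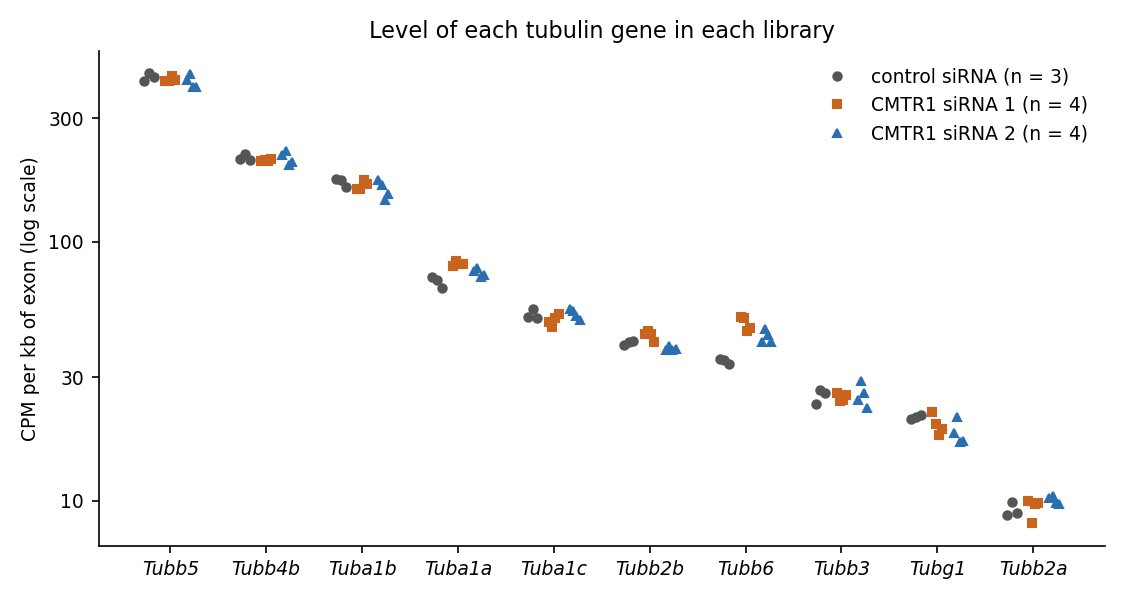
Levels of the 10 tubulin genes in CPM per kilobase of exon on a log axis, with 1 point per library for control siRNA (circles, n = 3), CMTR1 siRNA 1 (squares, n = 4) and CMTR1 siRNA 2 (triangles, n = 4). Genes are ordered by their control level, from 434 for Tubb5 to 9.22 for Tubb2a. All 8 CMTR1 siRNA points lie above all control points for Tuba1a and for Tubb6, which was chosen by its rise. Over all genes tested, the libraries did not overlap with control for 15.5% with siRNA 1 and 19.4% with siRNA 2, each siRNA taken alone. The share for both siRNAs at once was not computed.

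Among the alpha genes, Tuba1a rose with CMTR1 siRNA 1. Tuba1a is the alpha isotype of migrating and differentiating neurons, expressed here at an intermediate level. Its level was 131, 129 and 120 CPM in the control libraries, 146, 153, 148 and 148 CPM with siRNA 1 and 139, 143, 133 and 134 CPM with siRNA 2. Every library of either CMTR1 siRNA lay above every control library, and every siRNA 1 library lay above every siRNA 2 library. The log2 fold change was 0.23 ± 0.05 (SE, edgeR quasi-likelihood adjusted p = 0.00332) for siRNA 1, or 1.17-fold. For siRNA 2 it was 0.12 ± 0.05 (95% interval 0.02 to 0.22, edgeR adjusted p = 0.146), and the siRNA 2 against siRNA 1 difference was -0.11 ± 0.05 (edgeR adjusted p = 0.135). Without control replicate 3, which had the lowest Tuba1a level, the siRNA 1 value was 0.19 with an edgeR adjusted p of 0.0522. Over the 11 fits that each left out 1 library its adjusted p ranged from 0.00224 to 0.0522. In RNA from a whole culture, more cells that express a gene and more RNA per cell cannot be told apart.

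Tuba1b and Tuba1c did not pass the test against control. Tuba1b, the most abundant alpha gene per kilobase, measured 327, 326 and 306 CPM in control, 300.4, 299.98, 324 and 315 CPM with siRNA 1 and 324, 310.1, 272 and 287 CPM with siRNA 2. The groups overlapped, and the log2 fold changes were -0.04 (95% interval -0.14 to 0.05) and -0.10 (-0.20 to -0.00) with edgeR adjusted p of 0.724 and 0.217. Tuba1c measured 117, 125 and 116 CPM in control, 107 to 121 CPM with siRNA 1 and 114 to 126 CPM with siRNA 2. Its log2 fold changes of -0.07 (-0.18 to 0.03) and 0.01 (-0.10 to 0.11) had edgeR adjusted p of 0.551 and 0.954.

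Tubb6 was the beta gene with the widest gap between the groups, which is the reason it was chosen. It encodes a broadly expressed beta-tubulin known for making up little of the total in most tissues, and it lies on chromosome 18 from 67390717 to 67402749 of GRCm38, plus strand (ENSMUSG00000001473). Its level was 86.2, 85.5 and 82.0 CPM in control, 126, 124, 111 and 113 CPM with siRNA 1 and 100.1, 112, 106 and 100.1 CPM with siRNA 2. These values rest on 609 to 693 reads per control library, 837 to 998 with siRNA 1 and 705 to 939 with siRNA 2. All 8 CMTR1 siRNA libraries stood above all 3 control libraries, while the siRNA 1 and siRNA 2 libraries overlapped. The log2 fold change was 0.48 ± 0.06 (SE) for siRNA 1 and 0.31 ± 0.06 for siRNA 2, or 1.40-fold and 1.24-fold, and -0.18 ± 0.05 between siRNA 2 and siRNA 1. Leaving out any 1 library kept these between 0.46 and 0.52, 0.27 and 0.33, and -0.21 and -0.15. Tubb6 was chosen with all of these libraries, so the ranges are a description as well.

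**Figure D2:**
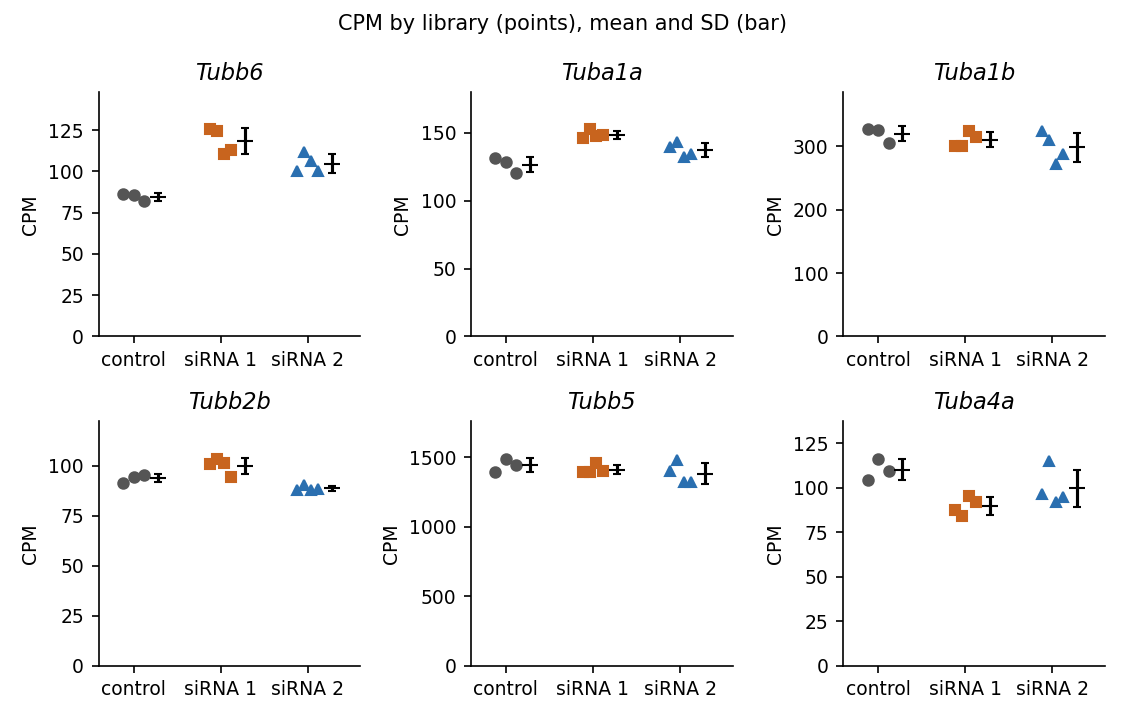
CPM of 6 tubulin genes in each library, with the group mean and SD beside the points (control n = 3, each CMTR1 siRNA n = 4) on axes that start at 0. Tubb6, chosen by its rise, and Tuba1a had all 8 CMTR1 siRNA libraries above the 3 control libraries. Tuba4a was lower with siRNA 1, and the ranges of Tuba1b and Tubb5 overlapped between groups. Over all genes tested, libraries did not overlap with control for 15.5% with siRNA 1 and 19.4% with siRNA 2.

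The abundant beta genes were not called in any of the 3 comparisons. Tubb5, the highest tubulin per kilobase, measured 1391, 1490 and 1447 CPM in control, 1392 to 1454 CPM with siRNA 1 and 1319 to 1478 CPM with siRNA 2, and the groups overlapped. Its log2 fold changes were -0.03 (95% interval -0.12 to 0.05, edgeR adjusted p = 0.766) and -0.06 (-0.15 to 0.02, edgeR adjusted p = 0.383). Tubb4b measured 433 to 455 CPM in control, 428 to 436 CPM with siRNA 1 and 414 to 468 CPM with siRNA 2, with log2 fold changes of -0.03 (-0.12 to 0.05) and -0.00 (-0.09 to 0.08). The upper ends of these intervals lay below the Tubb6 values of 0.48 for siRNA 1 and 0.31 for siRNA 2. Tubb6 had 95% intervals of its own, 0.37 to 0.60 and 0.19 to 0.42. That is a description, because Tubb6 was chosen by its change, and it does not test whether other members differ from Tubb6. The upper ends of the other tested members also lay below the Tubb6 values, except Tubb2a with siRNA 2 (upper end 0.33). With siRNA 2 the intervals of Tuba1a (0.02 to 0.22) and Tubb2a overlapped that of Tubb6.

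Tubb2b differed between the CMTR1 siRNAs and not detectably from control. Tubb2b is a beta isotype of the developing nervous system, and lies beside its near copy Tubb2a on chromosome 13. Its level was 91.4, 94.6 and 95.4 CPM in control, 100.8, 104, 101.4 and 94.4 CPM with siRNA 1 and 88.1, 90.5, 87.8 and 88.7 CPM with siRNA 2. All siRNA 2 libraries lay below all control and all siRNA 1 libraries, whereas siRNA 1 and control overlapped. Against control the log2 fold change was 0.09 ± 0.05 (SE, edgeR adjusted p = 0.389) for siRNA 1 and -0.08 ± 0.05 (edgeR adjusted p = 0.397) for siRNA 2. The siRNA 2 against siRNA 1 difference was -0.17 ± 0.05 (edgeR adjusted p = 0.0255). That call was lost when siRNA 1 replicate 1, 2 or 3 or siRNA 2 replicate 1 or 4 was left out, with log2 values of -0.17, -0.15, -0.17, -0.17 and -0.17 and adjusted p between 0.0501 and 0.107, so it rests on the full set of libraries.

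Tubb2a and Tubb3 showed no difference past the test. Tubb2a had the fewest reads of the 10 genes, 106 to 141 per library, and the widest intervals, with log2 fold changes of 0.03 (95% interval -0.19 to 0.24) and 0.12 (-0.09 to 0.33). Tubb3, the isotype used to stain neurons, measured 44.2 to 50.0 CPM in control, 45.4 to 49.0 CPM with siRNA 1 and 42.6 to 54.2 CPM with siRNA 2. Its log2 fold changes were -0.02 (-0.16 to 0.12) and 0.01 (-0.13 to 0.15), with edgeR adjusted p of 0.936 and 0.952.

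Tubg1 was lower on average with both siRNAs but did not pass the test. It encodes the main gamma-tubulin of dividing cells, and Tubg2, its brain-enriched relative, held at most 6 reads in any library. Tubg1 measured 47.1, 47.6 and 48.5 CPM in control, 49.9, 45.0, 40.7 and 42.9 CPM with siRNA 1 and 41.6, 47.8, 38.4 and 38.7 CPM with siRNA 2. In each CMTR1 siRNA group 1 library reached the control range. The log2 fold changes were -0.10 (95% interval -0.25 to 0.05, edgeR adjusted p = 0.549) and -0.19 (-0.34 to -0.05, edgeR adjusted p = 0.100). Without siRNA 2 replicate 2, the highest of its group, the siRNA 2 value was -0.27 with an edgeR adjusted p of 0.0205, and over the fits that left out 1 library the adjusted p ranged from 0.0205 to 0.239.

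**Figure D3:**
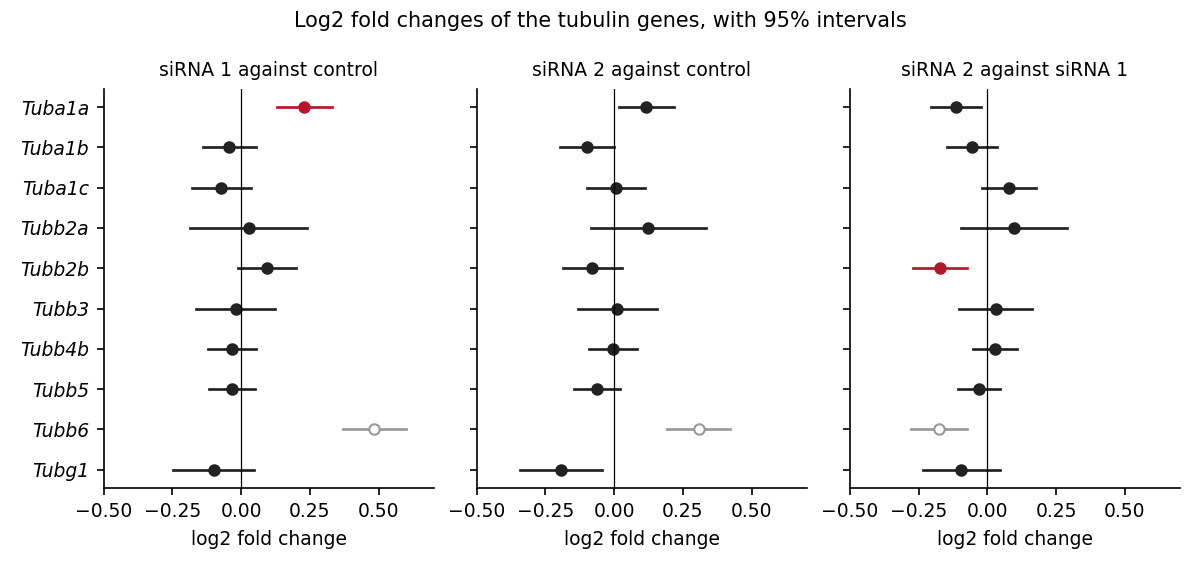
Log2 fold changes of the 10 tubulin genes (points) with 95% intervals (lines) for siRNA 1 against control, siRNA 2 against control and siRNA 2 against siRNA 1. Red marks an edgeR adjusted p of at most 0.05 over all 16073 genes tested (Tuba1a for siRNA 1, 0.23; Tubb2b between the siRNAs, -0.17), black a larger p, and open grey points Tubb6, which was not tested.

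Beside Tubb6, 9 members remained for the test. With siRNA 1, 1 of the 9 was called higher and 0 lower by edgeR at a false discovery rate of 0.05, and 1 had an unadjusted p under 0.05. Over all 16073 genes tested, 2.71% were called higher and 1.97% lower in that comparison (435 and 316 genes, against 346 and 400 with TMM factors and 199 and 322 with DESeq2). With siRNA 2, 0 of the 9 were called, by edgeR's quasi-likelihood and exact tests and by DESeq2 alike, and 2 had an unadjusted p under 0.05, against 6.17% of all genes called higher and 3.55% lower (991 and 571 genes, 728 and 734 with TMM factors, 409 and 549 with DESeq2). Between siRNA 2 and siRNA 1, 0 were called higher and 1 lower, against 4.49% and 2.96% of all genes. The groups did not overlap for 1 of the 9 with siRNA 1, against 15.5% of all genes, and for 2 of the 9 with siRNA 2 (Tuba1a and Tubb2b), against 19.4%. With 9 members these counts are too small to set the tubulins apart from other genes. The median log2 fold change of the 9 was -0.03 with siRNA 1 and -0.00 with siRNA 2, beside 0.02 and 0.03 over all genes tested.

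The summed level of the alpha and beta members was 1048 ± 26 CPM per kilobase (SD, n = 3) in control, 1055 ± 13 with siRNA 1 and 1031 ± 53 with siRNA 2 (n = 4 each). The alpha sum was 293 ± 11, 298 ± 7.9 and 288 ± 17 CPM per kilobase and the beta sum 755 ± 22, 757 ± 6.5 and 743 ± 38. The alpha sum cannot be set against the beta sum. Of the 75-base stretches, 48.9% to 70.5% were shared in the alpha genes and 0% in Tubb5. In each of these sums the libraries of the 3 groups overlapped.

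Within the alpha genes, Tuba1a had a larger share in every CMTR1 siRNA library than in any control library, and Tuba1b a smaller one. Shares are percentages of the summed CPM per kilobase of the 3 genes in a library. In the control libraries Tuba1a made up 24.4%, 23.8% and 23.8%, compared with 27.9%, 29.1%, 26.8% and 27.2% for siRNA 1 and 25.3%, 26.6%, 27.2% and 26.9% for siRNA 2. Tuba1b made up 58.4%, 57.9% and 58.1% of the control pool, compared with 55.2%, 54.9%, 56.6% and 55.4% for siRNA 1 and 56.6%, 55.4%, 53.6% and 55.2% for siRNA 2. For both genes no CMTR1 siRNA library reached the control range. The Tuba1a differences from control were 3.73 and 2.51 percentage points and those of Tuba1b -2.61 and -2.95 points, each with a two-sided exact permutation p of 0.0571, the smallest that 3 libraries against 4 can give. The shares of a library sum to the whole and both comparisons use the same 3 control libraries, so these are not separate results. The Tuba1b difference for siRNA 1 was -0.90 points when every alpha-tubulin gene entered the pool, Tuba4a among them. The Tuba1c share was 17.2% to 18.3% in control, 16.1% to 17.4% with siRNA 1 and 17.97% to 19.2% with siRNA 2, and siRNA 2 exceeded siRNA 1 by 1.57 points (exact permutation p = 0.0286, the smallest that 4 against 4 can give), or by 0.79 points with every alpha-tubulin gene in the pool.

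Shares of the beta genes differed by smaller amounts. Without Tubb6, which would lower the other shares by its own increase, Tubb5 made up 59.8%, 60.2% and 60.5% in control, 59.5% to 60.6% with siRNA 1 and 59.0% to 59.5% with siRNA 2. The siRNA 2 share lay below control in every library, by 0.91 points on average (exact permutation p = 0.0571), and below siRNA 1 by 0.54 points (exact permutation p = 0.0286). Tubb4b took 30.1% ± 0.41 (SD, n = 4) with siRNA 2 against 29.2% ± 0.46 with siRNA 1 (exact permutation p = 0.0286) and 29.3% ± 0.52 in control, where the libraries overlapped. Tubb2b took 6.15% ± 0.25 with siRNA 1, above the 5.68% ± 0.12 of control (exact permutation p = 0.0571) and the 5.54% ± 0.23 with siRNA 2 (exact permutation p = 0.0286). Over the 24 share comparisons the lowest Benjamini-Hochberg adjusted p was 0.114. At these group sizes none could have reached the false discovery rate of 0.05, whatever the shares. The smallest exact permutation p possible was 0.0571 against control and 0.0286 between the siRNAs, before adjustment over the 24 comparisons. The adjusted values therefore cannot decide whether shares differed. With Tubb6 in the pool, its own share was 4.60% ± 0.19 in control, 6.41% ± 0.45 with siRNA 1 and 5.78% ± 0.26 with siRNA 2, given as a description.

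**Figure D4:**
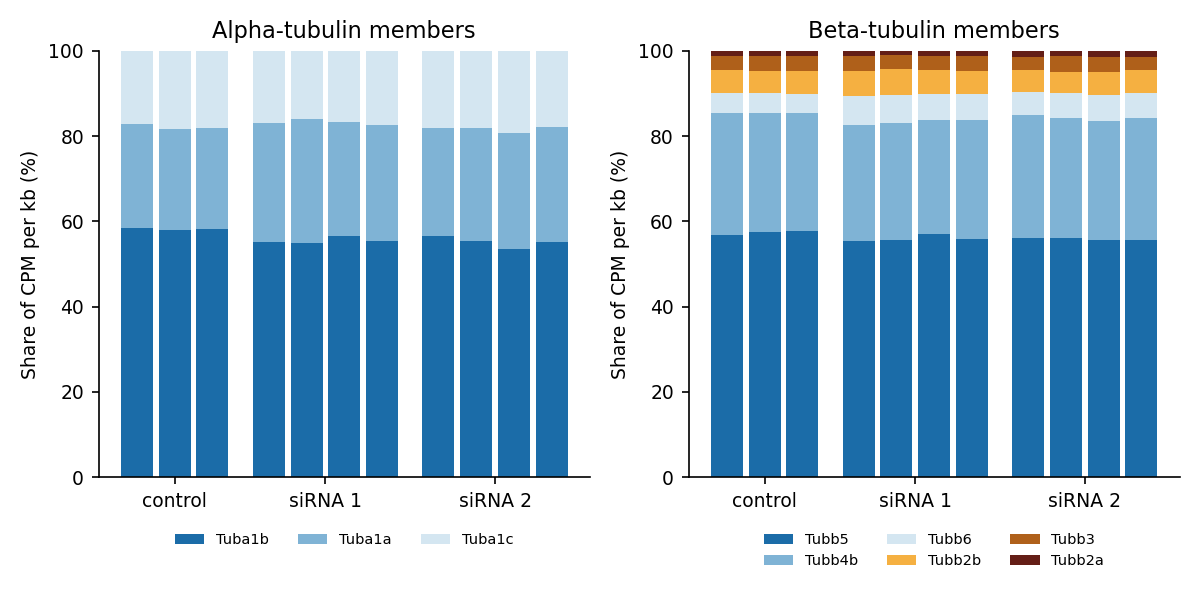
Share of each gene in the summed CPM per kilobase of the 3 alpha-tubulin members (left) and the 6 beta-tubulin members with Tubb6 (right), 1 bar per library in percent. Tuba1b and Tubb5 take the largest parts, the Tuba1a band widens from 24.0% on average in control to 27.7% and 26.5%, and the Tubb6 band from 4.60% to 6.41% and 5.78%.

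Some genes shared the pattern of Tubb6 over the libraries. Over 6051 genes whose log2 CPM averaged 5 or more, the highest Pearson correlations of log2 CPM with Tubb6 over the 11 libraries were those of Celf5 (0.96), Fbn2 (0.96), Cd81 (0.96), Pcyox1l (0.95) and Cdkn1a (0.95). Celf5 encodes a splicing regulator, Fbn2 fibrillin-2 of the extracellular matrix, Cd81 a tetraspanin and Cdkn1a the cell cycle inhibitor p21, a p53 target. Fbn2 averaged 25.4 CPM in control, 41.5 with siRNA 1 and 33.8 with siRNA 2, and Cdkn1a 40.7, 57.5 and 53.9. Of the tubulin members compared, Tuba1a was closest to Tubb6 (r = 0.91, place 34), followed by Tubb2b (r = 0.42) and Tubb3 (r = 0.10). Values were below 0 for Tubg1 (-0.14), Tubb4b (-0.18), Tubb5 (-0.21), Tuba1b (-0.30) and Tuba1c (-0.44). The points share library, depth and group, and the correlations were used to rank genes and carry no test.

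Of the 10 other protein-coding tubulin genes, 6 had enough reads to be tested. Tuba8, Tubal3, Tubb1 and Tubg2 did not pass the filter on low counts. Tuba4a fell with siRNA 1: it measured 105, 116 and 110 CPM in control, 87.7, 84.1, 95.2 and 92.0 CPM with siRNA 1 and 96.6, 115, 92.2 and 94.8 CPM with siRNA 2. Its log2 fold change was -0.30 ± 0.06 (SE, edgeR adjusted p = 0.00224) for siRNA 1, where no library reached control, and -0.14 ± 0.06 (edgeR adjusted p = 0.149) for siRNA 2. Tuba4a is known for encoding an alpha-tubulin made without the terminal tyrosine. Over 37.3% of its exon length it overlaps Stk16 on the opposite strand, whose log2 fold changes were 0.10 and -0.03 with libraries that overlapped. The library kit keeps strand, but the strand setting used in counting was not given in the sources used here.

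Tuba3a, an alpha gene known from testis, differed between the CMTR1 siRNAs. It measured 40.2, 38.9 and 38.1 CPM in control, 30.3 to 37.6 CPM with siRNA 1 and 43.7 to 48.2 CPM with siRNA 2. The siRNA 2 libraries lay above control and the siRNA 1 libraries below it. The difference between siRNA 2 and siRNA 1 was 0.36 ± 0.07 (edgeR adjusted p = 0.000429). Against control the value was 0.23 ± 0.07 for siRNA 2 (edgeR adjusted p = 0.0391, lost under 4 of 6 alternative settings, with adjusted p up to 0.16, and without control replicate 1, 2 or 3 or siRNA 2 replicate 1 or 2) and -0.14 ± 0.08 for siRNA 1 (edgeR adjusted p = 0.377). Its close relative Tuba3b, named after its values were seen, averaged 2.66 CPM with siRNA 1 and 4.40 CPM with siRNA 2, a difference of 0.73 ± 0.22 (edgeR adjusted p = 0.0284). The Tuba3b libraries overlapped, and the call was lost with DESeq2 (adjusted p 0.0899) and without siRNA 1 replicate 1 or 3 or siRNA 2 replicate 2 or 4 (adjusted p up to 0.177). Tubb4a, a beta isotype known from brain, rose with siRNA 2 from 2.69 to 2.92 CPM in control to 4.07 to 6.08 CPM, a log2 fold change of 0.87 ± 0.24 (edgeR adjusted p = 0.0155) that was lost without control replicate 2 or 3 or siRNA 2 replicate 2 (adjusted p up to 0.0667). In these 6 genes 0 were called higher and 1 lower with siRNA 1, against 2.71% and 1.97% of all genes. With siRNA 2, 2 were higher and 0 lower, against 6.17% and 3.55%. With 6 genes these counts are too small to set the list apart.

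The next list holds genes that fold tubulin, or read and degrade its mRNA. All 16 were tested, from the prefoldin subunits through the tubulin cofactors Tbca to Tbce to Ttc5, Scaper and Cnot11 of autoregulation. With siRNA 1, 0 were called by edgeR and with siRNA 2 Tbcel alone, which was lower. Beside the 2.71% higher and 1.97% lower over all genes with siRNA 1, and 6.17% and 3.55% with siRNA 2, these counts do not set the list apart. Tbcel, a cofactor E-like protein known to destabilise tubulin, measured 42.7 to 46.5 CPM in control, 39.7 to 45.0 CPM with siRNA 1 and 29.4 to 35.3 CPM with siRNA 2. The siRNA 2 libraries lay apart from both other groups, with a log2 fold change of -0.47 ± 0.07 (edgeR adjusted p = 2.27e-05) against control and -0.38 ± 0.07 (edgeR adjusted p = 0.000313) against siRNA 1. Ttc5 was not called and measured 61.3 to 63.4 CPM in control, 58.6 to 62.1 CPM with siRNA 1 and 59.5 to 61.3 CPM with siRNA 2, with log2 fold changes of -0.05 (95% interval -0.16 to 0.07) and -0.03 (-0.14 to 0.09). Between siRNA 2 and siRNA 1, Vbp1, a prefoldin subunit named after its values were seen, was also higher, by 0.27 ± 0.07 (edgeR adjusted p = 0.0158). Its libraries overlapped, and the call was lost without siRNA 1 replicate 1 or 2 or siRNA 2 replicate 1 or 4 (adjusted p up to 0.106).

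None of the 9 genes tested of the gamma-tubulin ring complex was called in any of the 3 comparisons by edgeR, with log2 fold changes between -0.04 and 0.16 for siRNA 1 and between -0.06 and 0.12 for siRNA 2. Of these, 2 had an unadjusted p under 0.05 with siRNA 1, 0 with siRNA 2 and 1 between the siRNAs, and DESeq2 called 0, 0 and 0. They encode the proteins that hold Tubg1 in the ring.

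Among 22 tested genes of the enzymes that modify tubulin, 2 were higher and 0 lower with siRNA 1, against 2.71% and 1.97% of all genes, and 2 higher and 1 lower with siRNA 2, against 6.17% and 3.55%. Vash2, a tubulin carboxypeptidase that removes the terminal tyrosine of alpha-tubulin, rose with siRNA 1, from 21.5 to 22.9 CPM in control to 28.8 to 31.8 CPM (log2 fold change 0.43 ± 0.09, edgeR adjusted p = 0.00198). With siRNA 2 it measured 23.1 to 30.2 CPM. Ttll12, of the tubulin tyrosine ligase-like family, measured 93.2 to 96.0 CPM in control, 102 to 115 CPM with siRNA 1 and 102 to 121 CPM with siRNA 2. Its log2 fold changes were 0.21 ± 0.06 (edgeR adjusted p = 0.0300) and 0.22 ± 0.06 (edgeR adjusted p = 0.0133), and TMM factors ended the first call and DESeq2 both (highest adjusted p 0.099 and 0.0601 over 6 alternatives). Leaving out any control library or siRNA 1 replicate 1, 2 or 4 ended the first (adjusted p up to 0.141) and leaving out control replicate 2 or 3 or siRNA 2 replicate 2 the second (up to 0.0819). Ttll3, a glycylase, fell with siRNA 2, from 9.65 to 10.6 CPM in control to 5.85 to 7.95 CPM (log2 fold change -0.52 ± 0.15, edgeR adjusted p = 0.0170), and lost the call without the same 3 libraries (adjusted p up to 0.078). Ttll7, a polyglutamylase named after its values were seen, was called higher with siRNA 2 at 2.42 CPM on average against 1.23 CPM (edgeR adjusted p = 0.0318). DESeq2 gave Ttll7 no adjusted p, and the call was lost without any 1 control library or siRNA 2 replicate 1, 2 or 4 (adjusted p up to 0.16). The ligase Ttl, which puts the tyrosine back, was not called in any comparison, with log2 fold changes of -0.10 ± 0.09 and 0.08 ± 0.09. Between siRNA 2 and siRNA 1 the sole call was Tpgs2, a subunit of a polyglutamylase, higher by 0.29 on the log2 scale with siRNA 2 (edgeR adjusted p = 0.0491), also named after its values were seen. Its libraries overlapped, and the call was lost under 5 of 6 alternatives, DESeq2 among them (adjusted p 0.122), and held in 2 of the 11 fits that left out 1 library (adjusted p up to 0.25).

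Of 35 genes for proteins that bind, cap or cut microtubules, 0 were called higher and 2 lower with siRNA 1, against 2.71% and 1.97% of all genes, and 4 higher and 1 lower with siRNA 2, against 6.17% and 3.55%. Map1a, a structural microtubule-binding protein, rose with siRNA 2, from 140 to 152 CPM in control to 156 to 179 CPM, while siRNA 1 gave 144 to 157 CPM. Its log2 fold change was 0.23 ± 0.05 (edgeR adjusted p = 0.00315) against control and 0.20 ± 0.05 (edgeR adjusted p = 0.00636) against siRNA 1. Map7, which recruits kinesin-1, measured 53.7 to 65.5 CPM in control, 45.0 to 55.5 CPM with siRNA 1 and 46.4 to 54.9 CPM with siRNA 2. It fell in both comparisons, by 0.30 and 0.22 on the log2 scale (edgeR adjusted p = 0.00993 and 0.0464), although libraries overlapped, and lost the call without control replicate 2 or 3 or siRNA 1 replicate 2 in the first (adjusted p up to 0.12) and with DESeq2 (adjusted p 0.057) or without control replicate 2 or 3 or siRNA 1 replicate 4 or siRNA 2 replicate 1 or 2 in the second (up to 0.282). Mapt, which encodes tau, fell with siRNA 1 by 0.53 on the log2 scale (10.8 to 12.5 CPM in control, 6.55 to 9.47 CPM with siRNA 1, edgeR adjusted p = 0.0234), a call lost without control replicate 2 or siRNA 1 replicate 1 or 4 (adjusted p up to 0.161). The other calls, named after their values were seen, were Map2 of dendrites, the plus-end protein Mapre1 and the polymerase Ckap5, higher with siRNA 2 by 0.36, 0.16 and 0.14 on the log2 scale, and the depolymerising kinesin Kif2a, higher with siRNA 2 than with siRNA 1 by 0.17 (edgeR adjusted p = 0.0455, 0.0494, 0.0480 and 0.0379). All 4 lost the call with DESeq2 (adjusted p 0.158, 0.189, 0.179 and 0.079), and they held it in 3, 3, 5 and 4 of the 11 fits that left out 1 library (adjusted p up to 0.165, 0.268, 0.218 and 0.164). Over these lists the siRNA 2 count of 11 called genes was 7 with TMM factors and 4 with DESeq2, which gave Ttll7 no adjusted p.

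**Figure D5:**
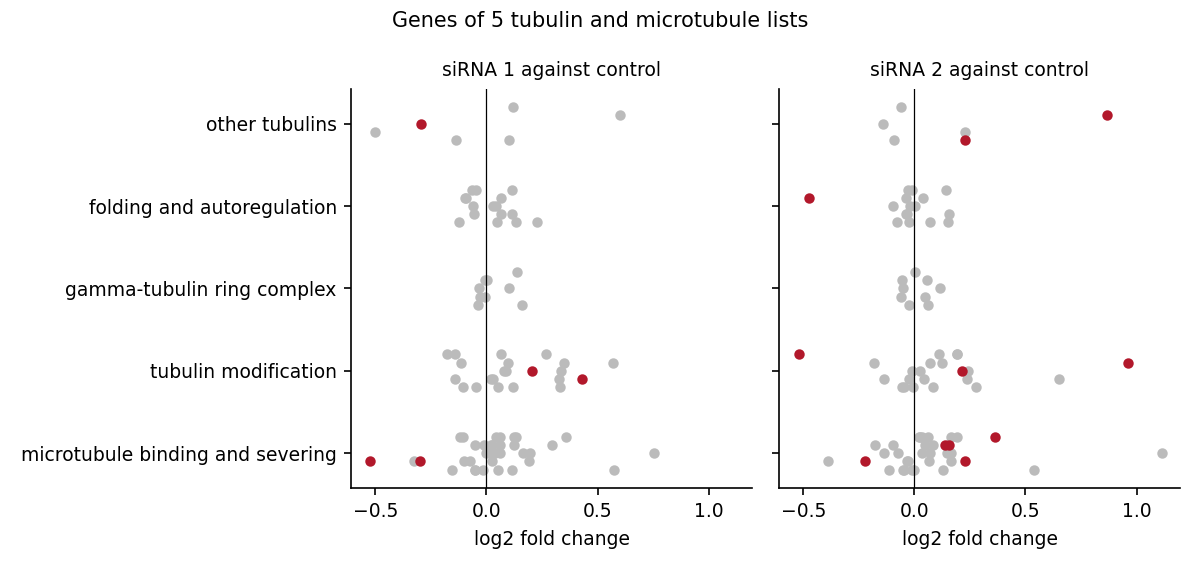
Log2 fold changes of every tested gene in 5 tubulin and microtubule lists (10 tubulin members left out), for siRNA 1 and siRNA 2 against control, with 1 point per gene and points spread vertically for legibility. Red points passed an edgeR adjusted p of 0.05: 5 genes for siRNA 1 and 11 for siRNA 2, with none in the gamma-tubulin ring complex.

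Markers of cell state also moved between the groups. The summed level of 8 embryonic stem cell markers was 1916 to 2019 CPM in control, 1644 to 1810 CPM with siRNA 1 and 1731 to 1808 CPM with siRNA 2, and 5 and 3 of the 8 were called lower. Over all genes tested, 2.71% were called higher and 1.97% lower with siRNA 1, and 6.17% and 3.55% with siRNA 2. The Pou5f1 call with siRNA 1 (edgeR adjusted p = 0.0332) was lost under a replicate block (adjusted p 0.0586). It held in 5 of the 11 fits that left out 1 library (adjusted p up to 0.193). The other stem cell marker calls against control held in all of these fits. The sum of 6 neural progenitor markers was 102 to 110.3 CPM in control, 119 to 141 CPM with siRNA 1 and 117 to 140.1 CPM with siRNA 2, with 1 called higher in each comparison with control (Nes). For siRNA 1 the Nes call was lost with DESeq2 (adjusted p 0.051) and without control replicate 2 or siRNA 1 replicate 1 or 2 (up to 0.168). In control, siRNA 1 and siRNA 2, Nes averaged 61.6, 73.6 and 83.8 CPM, Sox1 32.1, 38.4 and 32.8, Pax6 10.4, 13.5 and 8.44, Zic1 1.40, 2.73 and 1.76 and Fabp7 0.43, 1.08 and 0.79, and Neurog2 reached at most 0.27 CPM in any library. The sum of 10 neuron markers was 152 to 156 CPM in control, 137 to 151 CPM with siRNA 1 and 154 to 163 CPM with siRNA 2, with 0 and 1 called higher. Fibroblast markers summed to 41.8 to 52.8, 42.5 to 55.5 and 52.6 to 57.7 CPM, with 0 called for siRNA 1 and 2 higher and 1 lower for siRNA 2 (Col1a1 and Dcn higher, Col3a1 lower, Lum at most 0.14 CPM). DESeq2 also called Col1a1 and gave Dcn and Col3a1 no adjusted p, and Col3a1 lost its call without control replicate 1 or siRNA 2 replicate 2 or 4 (adjusted p up to 0.139). Primitive endoderm markers summed to 54.1 to 70.6, 50.2 to 68.7 and 49.9 to 59.7 CPM, with 0 called in either. Their part in the values of Tubb6, Tuba1a and the other tubulin genes was not tested.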

How the data were processed

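RNA from E14 cells was depleted of ribosomal RNA and made into the 11 directional libraries. Per the submitters' processing notes and the study's methods, adaptors were removed with cutadapt, STAR placed the reads on GRCm38 (mm10) and featureCounts counted them; versions are not given in the sources used here. The deposited values are whole read counts per Ensembl gene for each library, and the authors did not normalise them. Rows that name no gene were left out: reads on no feature made up 39.3% to 44.3%, ambiguous reads 0.963% to 1.05% and reads aligned to several places 5.79% to 6.32% of the 10 libraries whose files list them. Of the 54838 identifiers, 54809 were paired with a GENCODE M21 symbol.

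Counts were fitted with edgeR 4.0.16 (R 4.3.3), 1 quasi-likelihood model of the 3 groups scaled to total counts, on the 16073 genes with more than 1 CPM in at least 4 libraries, as the study's methods filter. Calls used a Benjamini-Hochberg false discovery rate of 0.05 over all these genes, and intervals are the estimate ± 1.96 SE. Shares were compared with two-sided exact permutation tests over libraries (scipy 1.17.1). The fit was tested on simulated counts. Alternatives were TMM factors, DESeq2 1.42.0, edgeR's exact test, no filter, fits of 2 groups, a replicate block, other length scaling, a pool of all tubulin genes and leaving out each library.

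The members and lists were chosen with earlier results of these data known, and 1 list gene is not reported here. Named genes were all members, Cmtr1, up to 3 called genes per pathway list with the lowest false discovery rate in either siRNA comparison, and the 5 genes most correlated with Tubb6. Same-numbered libraries of different groups did not deviate together (mean correlation 0.0087, -0.052 to 0.055 over 10 pairs), so numbers were not used as pairs. Intervals cover the spread between libraries, and reads carried no molecular identifiers.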

Additional observations from a re-analysis of the deposited data

Results flagged for a closer look

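In 4 of the 36 sets of 4 libraries examined, 1 library stood apart from the other 3, where chance gives about 5% of sets. Tubb2a was lowest in siRNA 1 replicate 2 at 13.2 CPM. Tubb5 was highest in siRNA 1 replicate 3 at 1454 CPM, and in the same library its share of the beta genes without Tubb6 was highest at 60.6%. Tuba1c had its highest share of the alpha genes, 19.2%, in siRNA 2 replicate 3.

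Among the members and the list genes named by the rule for named genes, the CMTR1 siRNAs differed from each other for 4 in the edgeR fit across all genes, which called 721 genes higher and 475 lower with siRNA 2 than with siRNA 1. Tuba3b, Vbp1, Tpgs2 and Kif2a, outside that rule, were also called and are given above. The difference, siRNA 2 against siRNA 1 on the log2 scale, was -0.17 for Tubb2b (adjusted p = 0.0255, lower in 4 of 4 libraries), 0.36 for Tuba3a (adjusted p = 0.000429, higher in 4 of 4), -0.38 for Tbcel (adjusted p = 0.000313, lower in 4 of 4) and 0.20 for Map1a (adjusted p = 0.00636, libraries overlapped).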

How the results depend on the processing

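Of the called members, Tuba1a with siRNA 1 held its call under all 6 settings of scaling, tool, filter, samples and block (adjusted p 0.00103 to 0.0080), and Tubb2b between the siRNAs likewise. Leaving out 1 library moved the members called between 0 and 1 in each of the 3 comparisons (siRNA 2 gained Tubg1 without its replicate 2). The list genes called ranged from 3 to 6 for siRNA 1, 2 to 14 for siRNA 2 and 3 to 9 between the siRNAs, and the count moved by over 1.5 times without control replicate 2 or 3 or siRNA 1 replicate 1, 2 or 4 for siRNA 1, without any control library, siRNA 1 replicate 4 or siRNA 2 replicate 1, 2 or 4 for siRNA 2, and without siRNA 1 replicate 1 or 2 or siRNA 2 replicate 1 or 4 between them. The siRNA 2 count of 11 was 7 with TMM factors, 4 with DESeq2, 7 with no filter and 7 with the replicate block, and the siRNA 2 against siRNA 1 count of 7 was 4 with DESeq2. Signs of values near 0 turned for Tubb3 with siRNA 1 under the replicate block (0.0049), for Tubb4b with siRNA 2 under it (0.00015), and with siRNA 2 for Tuba1c (-0.016 with TMM factors, -0.020 with DESeq2) and Tubb3 (-0.013 and -0.018). The block changed no other member's call. Leaving out 1 library gave ranges that crossed 0 for Tubb2a (-0.0041 to 0.092) and Tubb3 (-0.070 to 0.019) with siRNA 1, Tuba1c (-0.014 to 0.043), Tubb3 (-0.057 to 0.066) and Tubb4b (-0.035 to 0.024) with siRNA 2, and Tubb3 (-0.038 to 0.085) and Tubb4b (-0.0019 to 0.057) between the siRNAs. With every tubulin gene of a class in the pool, the Tuba1b share moved by -0.90 points with siRNA 1 and -1.96 between the siRNAs. That beta pool includes Tubb6, whose own increase lowers the other beta shares. In it Tubb5 moved by -1.48, -1.64 and -0.17 points in the 3 comparisons, and Tubb3 with siRNA 1 by -0.050. Per base not shared with another gene, Tuba1b differed by 0.055 points between the siRNAs. Shares without 1 library ranged from -2.95 to -2.39, -3.42 to -2.43 and -0.82 to 0.17 points for Tuba1b, from -0.62 to -0.19, -1.10 to -0.74 and -0.65 to -0.28 for Tubb5, and with siRNA 1 from -0.057 to 0.066 for Tubb3 and -0.43 to 0.086 for Tubb4b. Apart from the entry of Tubb6 into the beta pool, the cause of these moves was not tested. Depth limits Tubb2a most, with 106 to 141 reads per library.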
